A study of Mus musculus with 18 samples.

Results

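The genes described here are 47 interferon-stimulated genes of the mouse, chosen by symbol and matched to the gene identifiers of the deposited count table through the GRCm38 annotation. They comprised 24 antiviral effectors, 8 regulators and sensors of the interferon response, 5 immunity-related GTPases (IRG) and 10 guanylate-binding proteins (GBP). All 47 were found among the 55385 genes of the table. Of these, 44 reached 10 counts in 2 or more of 18 libraries and were tested among 14979 genes. *Ifi205* (79 counts over 18 libraries), *Gbp4* (32) and *Gbp10* (1) were below this filter and are not part of the counts given below.

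Type I interferons bind a receptor made of Ifnar1 and Ifnar2, and interferon gamma binds Ifngr1 and Ifngr2. Janus kinases at these receptors activate transcription factors. A complex that contains Irf9 binds the interferon-stimulated response element (ISRE), and the gamma-activated site (GAS) is the element best known from the response to interferon gamma. The induced proteins block steps of viral replication, sense foreign nucleic acid or, in the case of the IRG and GBP GTPases, take part in defence against intracellular pathogens. Macrophages are known to keep a low level of these transcripts in the absence of infection.

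Cells were bone marrow-derived macrophages (BMDM) from female C57BL/6J mice aged 12 weeks, differentiated in 20% L-929 conditioned medium and harvested on day 7. They received vehicle (Veh, 0.1% DMSO), 250 µM of the choline uptake inhibitor hemicholinium-3 (HC3) or 5 µM of the choline kinase inhibitor RSM-932a (RSM) for 24 h. For a further 24 h, they either stayed naïve (M[0]) or were given IL-4 at 20 ng/mL, which polarized them to M[IL-4]. Each of the 6 groups had 3 libraries, and the labels name 3 individual mice without saying which library number belongs to which mouse. The comparisons ask how blocking choline uptake or choline phosphorylation alters these genes in naïve and in IL-4-polarized cells. Total counts ranged from 17457796 to 19522255 per library, where 3 counts correspond to 0.153 to 0.176 CPM. Expression is given as CPM, the count relative to a library total scaled by TMM factors, with libraries in the order of replicates 1, 2 and 3. FDR is the Benjamini-Hochberg adjusted p of edgeR's quasi-likelihood test over 14979 genes, and a gene was called when FDR was under 0.05 with a change of at least 2-fold. Fold changes are on the log2 scale ± SE.

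Libraries of some groups stood apart in these genes. In RSM M[IL-4], replicate 3 was the highest of its 3 libraries at 41 of the 44 members, compared with 26.2% of all tested genes, and replicate 1 was the lowest at 42, compared with 36.3%. The median log2 ratio of the members to the other 2 libraries was 0.77 for replicate 3 and -0.79 for replicate 1, whereas over all tested genes it was -0.0048 and -0.0011. Replicate 1 was also the lowest at 34 members in Veh M[IL-4] (37.6% of all tested genes) and at 22 in HC3 M[IL-4] (36.3%). Replicate 2 was the highest of its group at 32 members for Veh M[0] (34.2% of all tested genes), at 30 for HC3 M[0] (30.9%), and at 33 for HC3 M[IL-4] (37.5%). The mitochondrial share of counts was 1.68 to 2.20% with Veh, 2.499 to 3.45% with HC3 and 0.665 to 0.829% with RSM, and with these genes left out HC3 called 25 and RSM 13 members lower in M[0], beside 24 and 12 with them. For RSM M[IL-4], the calls that were lost without replicate 3 are given beside the results. Member counts at an unadjusted p under 0.05 come from the edgeR fit to all libraries, RSM M[IL-4] replicate 3 included. The share of all genes at that limit is not given, so these counts are not a result about the members.

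**Figure D1:**
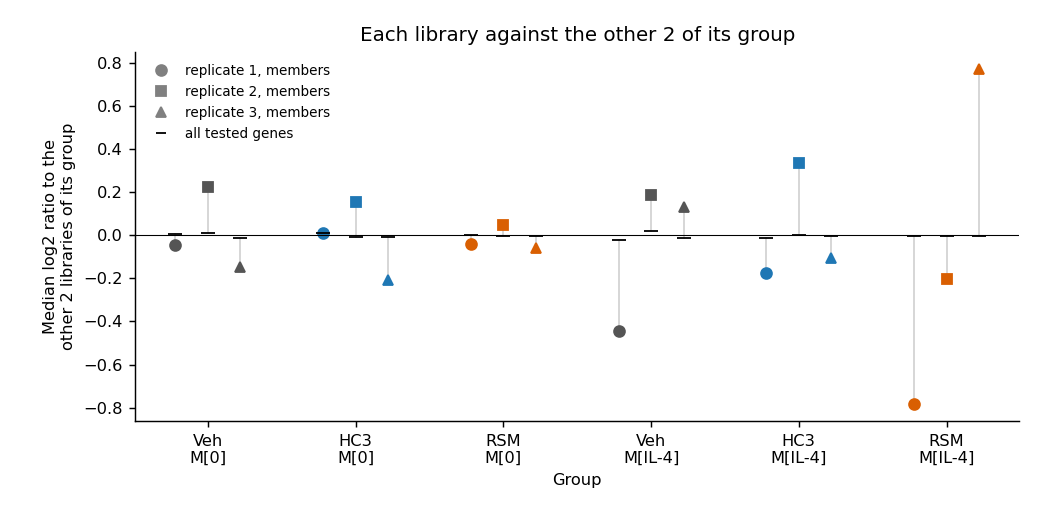
Median log2 ratio of each library to the mean of the other 2 libraries of its group (y axis) by group (x axis), over the 44 members (coloured symbols, shaped by replicate number) and over all 14979 tested genes (black dashes). The members of RSM M[IL-4] replicates 3 and 1 sit at 0.77 and -0.79, while all genes stay near 0 in every library.

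Promoter windows of 300 bases around the start (250 before, 50 after) were available from RefSeq (GRCm38.p6) for 31 of the 47 members. The ISRE core was searched as GAAA NN GAAA (N, any base) on both strands. It occurred in a window of 20 of these 31 members (64.52%) and of 3.993% of the 27025 genes with a window. By role, it was found for 10 of 17 effectors, 3 of 6 regulators, 3 of 4 IRG genes and 4 of 4 GBP genes with a window. The GAS, searched as TTCNNNGAA on both strands, occurred in 9 of 31 members (29.03%) and in 9.554% of all genes with a window. With a longer ISRE, GAAA NN GAAA CN, the counts were 15 of 31 members and 0.9436% of all genes with a window. These are letter matches and no binding was measured. The stretches below lie before the RefSeq start and are shown because the members that carry them include neighbours that moved together or apart in the results that follow. Capitals mark matches to the ISRE core, which reads TTTC NN TTTC where it lies on the other strand.
Isg15, chr4:156200865-156200906, minus strand: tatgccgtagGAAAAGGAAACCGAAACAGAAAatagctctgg
Ifit1, chr19:34640775-34640823, plus strand: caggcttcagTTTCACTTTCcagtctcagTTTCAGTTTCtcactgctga
Ifit3, chr19:34583363-34583426, plus strand: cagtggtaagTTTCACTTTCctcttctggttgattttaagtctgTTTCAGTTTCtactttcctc
Ifit3b, chr19:34607759-34607822, plus strand: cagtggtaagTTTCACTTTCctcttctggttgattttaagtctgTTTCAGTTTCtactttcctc
Oas1a, chr5:120907526-120907555, minus strand: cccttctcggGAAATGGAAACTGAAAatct
Igtp, chr11:58199512-58199541, plus strand: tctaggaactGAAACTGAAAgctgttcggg
Irgm2, chr11:58214903-58214932, plus strand: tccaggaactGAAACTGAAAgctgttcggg
Gbp2, chr3:142620594-142620623, plus strand: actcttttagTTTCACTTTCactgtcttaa
Gbp3, chr3:142559989-142560024, plus strand: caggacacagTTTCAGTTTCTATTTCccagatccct
Gbp5, chr3:142496759-142496788, plus strand: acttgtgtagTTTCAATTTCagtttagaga
Gbp7, chr3:142530273-142530302, plus strand: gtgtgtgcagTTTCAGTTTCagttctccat
The printed stretches of *Ifit3* and *Ifit3b*, neighbours on chromosome 19, were identical, and those of *Igtp* and *Irgm2*, neighbours on chromosome 11, were near-identical around the same core. Among the 4 GBP genes of chromosome 3 the core lay 39 to 165 bases before the start. Members without a window in the RefSeq table were *Dhx58*, *Gbp4*, *Gbp6*, *Gbp8*, *Gbp9*, *Gbp10*, *Gbp11*, *Ifi204*, *Iigp1*, *Mx1*, *Mx2*, *Oas2*, *Parp14*, *Rtp4*, *Usp18* and *Zbp1*.

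Per kilobase of exon, the highest members in Veh M[0] were *Bst2*, which tethers budding virions to the cell (72.3 ± 7.10 CPM per kb), *Oas1a* (31.6 ± 3.13), *Ifi204*, a sensor of DNA (30.1 ± 2.34), *Trim30a* (24.2 ± 2.86) and *Parp14*, an ADP-ribosyltransferase (22.1 ± 1.77). *Oas1a* and *Ifi204* did not differ beyond their SD, and neither did *Trim30a* and *Parp14*. At the low end were *Gbp5* (0.189 ± 0.0315 CPM per kb), *Iigp1* (0.177 ± 0.0487) and *Gbp6* (0.105 ± 0.0552), and *Gbp11* had no count in any Veh M[0] library.

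In naïve macrophages, HC3 lowered most members. Of 44, 24 were called lower, against 6.11% of all tested genes, and 1 was called higher (*Gbp8*), against 5.93%. By role, 14 of 23 effectors, 4 of 8 regulators, 3 of 5 IRG genes and 3 of 8 GBP genes were called lower. The median log2 fold change was -1.27 over effectors, -1.01 over regulators and -1.17 over IRG genes, compared with 0.02 over all genes. RSM in M[0] called 12 members lower, against 6.51% of all genes, and 2 higher (*Gbp8* and *Gbp6*), against 5.05%. Of the 12, 10 were effectors, 1 was a regulator (*Dhx58*) and 1 a GBP gene (*Gbp3*), and no IRG gene was called by edgeR at the 2-fold limit, although 4 of 5 had an unadjusted p under 0.05 (DESeq2 called 0). Medians with RSM were -0.99 for effectors, -0.61 for regulators and -0.82 for IRG genes, against 0.01 over all genes. HC3 and RSM were set against the same Veh libraries, so these counts are not independent of each other.

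**Figure D2:**
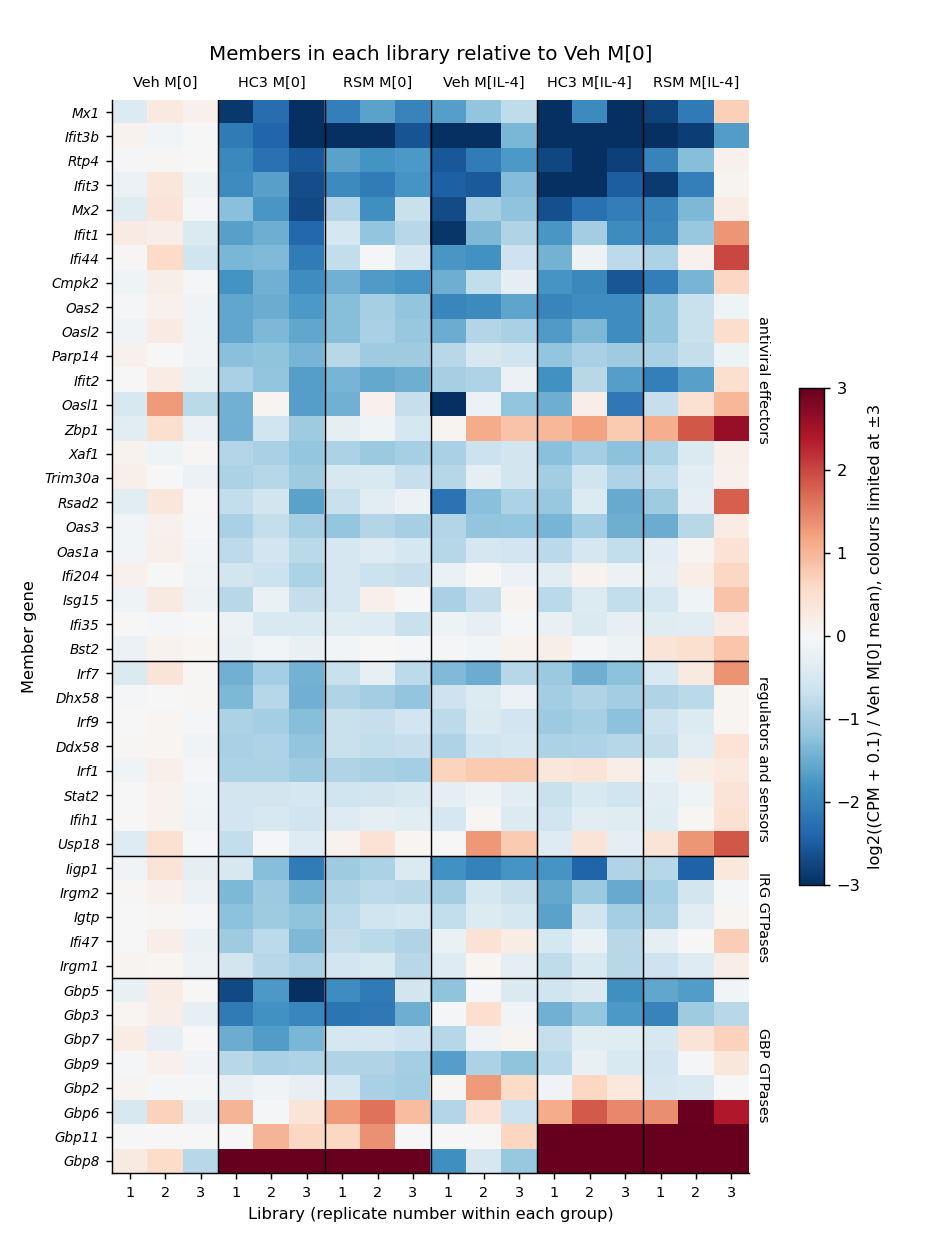
Heatmap of the 44 tested members (rows, by role) in the 18 libraries (columns, by group and replicate number), coloured by log2 of CPM plus 0.1 relative to the Veh M[0] mean, with colours limited at ±3. Rows are mostly blue in HC3 and RSM M[0], and *Gbp8* is red in all 12 inhibitor libraries.

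Among the effectors, *Oas2* encodes an oligoadenylate synthetase, which activates RNase L on sensing double-stranded RNA (chromosome 5, 120730333 to 120749853). Its level was 55.7, 62.0 and 53.2 CPM in Veh M[0], 19.4, 20.3 and 17.2 with HC3 and 23.3, 28.7 and 25.2 with RSM. All inhibitor libraries were below all Veh libraries, with changes of -1.59 ± 0.18, FDR = 7.00e-07 for HC3 and -1.15 ± 0.17, FDR = 2.90e-05 for RSM. *Oas1a*, a second synthetase of the same cluster, was at 55.8, 66.3 and 56.5 CPM in Veh M[0], 34.3, 39.7 and 34.0 with HC3 and 42.0, 45.7 and 40.8 with RSM. Here too the groups did not overlap, but the changes of -0.72 ± 0.14 and -0.47 ± 0.14 stayed under 2-fold. *Rtp4*, a receptor transporter with antiviral activity (chromosome 16, 23520291 to 23614222), was at 37.2, 39.4 and 39.2 CPM in Veh M[0], 10.0, 8.04 and 6.52 with HC3 and 12.6, 11.03 and 11.6 with RSM. The lowest Veh library was well above every inhibitor library (-2.24 ± 0.35, FDR = 4.11e-05 for HC3 and -1.72 ± 0.34, FDR = 4.66e-04 for RSM). As 15.9% of the *Rtp4* transcript is near-identical to the overlapping gene model *Gm45338*, part of its reads could be lost or shared.

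The dynamin-like GTPase gene *Mx1* was at 2.54, 4.17 and 3.71 CPM in Veh M[0], 0.374, 0.615 and 0.105 with HC3 and 0.747, 1.05 and 0.770 with RSM. The HC3 libraries, with 7, 12 and 2 counts, were all below those of Veh (-3.22 ± 0.78, FDR = 0.00245). With RSM it fell by 2.01 on the log2 scale (FDR = 0.0253), a call that was lost (FDR 0.0561 to 0.0756) without RSM M[0] replicate 1 or 3 or Veh M[0] replicate 2 or 3. *Ifit1*, which binds viral RNA, was at 9.46, 9.28 and 5.86 CPM in Veh M[0], 2.51, 2.82 and 1.47 with HC3 and 5.50, 3.45 and 4.47 with RSM. HC3 libraries were lowest and RSM libraries lay between (-1.85 ± 0.63, FDR = 0.0228 for HC3, and -0.87 ± 0.59, FDR = 0.253 for RSM). Its call with HC3 was lost (FDR 0.0512 to 0.0859) without Veh M[0] replicate 1 or 2 or HC3 M[0] replicate 1 or 3. The neighbouring *Ifit3* (-2.05 with HC3 and -1.98 with RSM) and *Ifit3b* (-3.14 and -3.77), which carry the identical promoter stretch, were each called lower with both inhibitors in every alternative. *Ifit3b* had few counts, 139 over all 18 libraries and 11 over those of HC3 M[0], so the size of its fall is uncertain.

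*Zbp1*, a sensor of Z-form nucleic acid, was at 3.87, 6.81 and 4.30 CPM in Veh M[0], 1.71, 3.17 and 2.26 with HC3 and 4.001, 4.45 and 3.34 with RSM. HC3 lowered it (-1.06 ± 0.38, FDR = 0.0292), a call lost (FDR 0.0761 to 0.1501) without Veh M[0] replicate 2 or HC3 M[0] replicate 1 or 3, and RSM libraries overlapped those of Veh. *Ifi44* was low throughout, at 1.71, 2.53 and 1.08 CPM in Veh M[0], 0.589, 0.615 and 0.316 with HC3 and 0.960, 1.62 and 1.13 with RSM. The groups did not overlap for HC3 (-1.79 ± 0.67, FDR = 0.039), but that call was lost (FDR 0.0653 to 0.142) without Veh M[0] replicate 1 or 2 or any 1 of the HC3 libraries. The other effectors called with HC3 were *Oasl2*, *Cmpk2*, a mitochondrial nucleotide kinase, *Xaf1*, *Ifit2*, *Mx2* and *Parp14*, and those called with RSM were *Oasl2*, *Cmpk2*, *Xaf1*, *Ifit2* and *Oas3*. With HC3, the call of *Ifit2* was lost (FDR 0.0569 to 0.108) without Veh M[0] replicate 1 or 2 or HC3 M[0] replicate 2 or 3, and *Xaf1* was under 2-fold (-0.97 to -0.94) without Veh M[0] replicate 1 or HC3 M[0] replicate 3. With RSM, *Oas3* was under 2-fold (-0.95 to -0.94) without Veh M[0] replicate 2 or RSM M[0] replicate 1, *Oasl2* (-0.997) without Veh M[0] replicate 2 and *Xaf1* (-0.98) without Veh M[0] replicate 1. *Isg15*, the ubiquitin-like modifier, and *Bst2* showed no change past the threshold, at -0.57 and -0.18 with HC3 and -0.11 and -0.05 with RSM.

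Of the regulators, *Irf9* provides DNA binding in the complex that recognises the ISRE (chromosome 14, 55603571 to 55610030). It was expressed at 69.9, 72.9 and 67.5 CPM in Veh M[0], 36.2, 34.3 and 28.8 with HC3 and 44.2, 43.3 and 47.3 with RSM. HC3 libraries were lowest (-1.08 ± 0.14, FDR = 3.11e-06; -0.64 ± 0.13 with RSM), and without HC3 M[0] replicate 3 the fall with HC3 was 0.99, just short of 2-fold. *Irf7*, the transcription factor that amplifies interferon production (chromosome 7, 141262706 to 141266481), was at 13.4, 23.7 and 18.7 CPM in Veh M[0], 6.58, 8.86 and 6.68 with HC3 and 11.4, 15.3 and 10.5 with RSM. HC3 lowered it without overlap (-1.33 ± 0.34, FDR = 0.00346), and RSM libraries overlapped those of Veh (-0.58 ± 0.32, FDR = 0.166). *Irf1* was just short of 2-fold with both (-0.99 ± 0.10, FDR = 3.02e-07 for HC3, and -0.97 ± 0.10, FDR = 4.63e-07 for RSM).

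Cytosolic RNA sensors of the RIG-I family were in the same list. *Ddx58*, which encodes RIG-I, was at 56.5, 57.8 and 51.2 CPM in Veh M[0], 27.9, 28.8 and 24.4 with HC3 and 34.9, 33.1 and 33.9 with RSM. The change was -1.03 ± 0.19, FDR = 1.72e-04 with HC3 and -0.70 ± 0.18 with RSM. With HC3 it was under 2-fold without Veh M[0] replicate 2 or HC3 M[0] replicate 3 (-0.99 to -0.96). *Dhx58*, which encodes the family member LGP2, was at 23.2, 24.5 and 24.8 CPM in Veh M[0], 9.42, 13.4 and 8.84 with HC3 and 12.9, 11.7 and 10.5 with RSM. It was called lower with HC3 (-1.20 ± 0.21, FDR = 1.13e-04) and with RSM (-1.05 ± 0.21, FDR = 4.24e-04), where it missed 2-fold without RSM M[0] replicate 3 (-0.98). Of its exons, 4.31% overlap the antisense gene *Dhx58os*, whose reads may be counted with it. *Ifih1*, the third sensor of the family, was not called (-0.55 and -0.34), nor was *Stat2* (-0.55 and -0.54).

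The IRG genes were all fitted below 0 with HC3 in M[0], and 3 of 5 were called. *Irgm2* was at 39.1, 42.2 and 34.1 CPM in Veh M[0], 15.0, 18.1 and 14.4 with HC3 and 20.5, 22.2 and 21.5 with RSM. *Igtp* was at 18.1, 18.8 and 17.8 CPM in Veh, 7.76, 8.71 and 7.89 with HC3 and 10.5, 11.9 and 12.6 with RSM. In both genes, the Veh, RSM and HC3 libraries formed separate ranges in that order, with -1.28 ± 0.19, FDR = 1.93e-05 for *Irgm2* and -1.17 ± 0.22, FDR = 2.28e-04 for *Igtp* with HC3. The 2 genes overlap on chromosome 11 and 8.21% of *Igtp* and 4.62% of *Irgm2* are near-identical sequence of the other, so a small part of their reads cannot be assigned. *Ifi47* was at 14.2, 16.3 and 12.4 CPM in Veh M[0], 6.79, 8.19 and 5.52 with HC3 and 8.59, 8.11 and 7.60 with RSM. Both inhibitors lay below Veh (-1.06 ± 0.24, FDR = 0.00137 and -0.82 ± 0.24, FDR = 0.00918), with HC3 under 2-fold (-0.96 to -0.93) without Veh M[0] replicate 2 or HC3 M[0] replicate 3.

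Macrophage markers moved in the same comparisons. Summed over 8 markers, the naïve cells had 20277 to 21364 CPM with Veh, 8707 to 9800 with HC3 and 15750 to 17196 with RSM. Of the 8, 6 were called lower with HC3, against 6.11% of all genes, and 3 with RSM, against 6.51%. *Adgre1* was -1.22 and -1.16, and *Csf1r* -1.39 and -1.21. *Lyz2*, the largest part of the sum, was -1.20 with HC3 and 0.003 with RSM. *Cd14* was -1.41 and -0.42, *Itgam* -1.94 and -0.66, *Mertk* -1.33 and -0.71, *Fcgr1* -0.93 and -1.03, and *Cd68* -0.56 and -0.55. A list of 5 markers of plasmacytoid dendritic cells, known interferon producers, was at 111 to 119 CPM with Veh, 54.0 to 58.8 with HC3 and 78.5 to 92.3 with RSM, almost all of it *Tcf4*, while *Siglech* had 7 counts over 18 libraries and *Klk1* none. B cell markers, mostly *Ighm*, were at 21.3 to 27.8 CPM in Veh M[0] and at most 2.68 with an inhibitor. Stromal markers were at 512 to 865 CPM in Veh M[0], 1220 to 1679 with HC3 and 1022 to 1465 with RSM, mostly *Col1a1* and *Col1a2*. With HC3 and RSM, *Col1a1* was 1.17 and 1.13, *Col1a2* 0.91 and 0.66, and *Col3a1* 1.45 and 1.16. *Pdgfrb* was 0.66 and 0.73, whereas *Dcn* was -0.10 and -1.51. Neutrophil, T cell and conventional dendritic cell markers summed to at most 2.90 CPM in any library. The part of all these markers in the results was not tested, and fewer cells of a type and less RNA per cell cannot be told apart in bulk RNA.

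**Figure D3:**
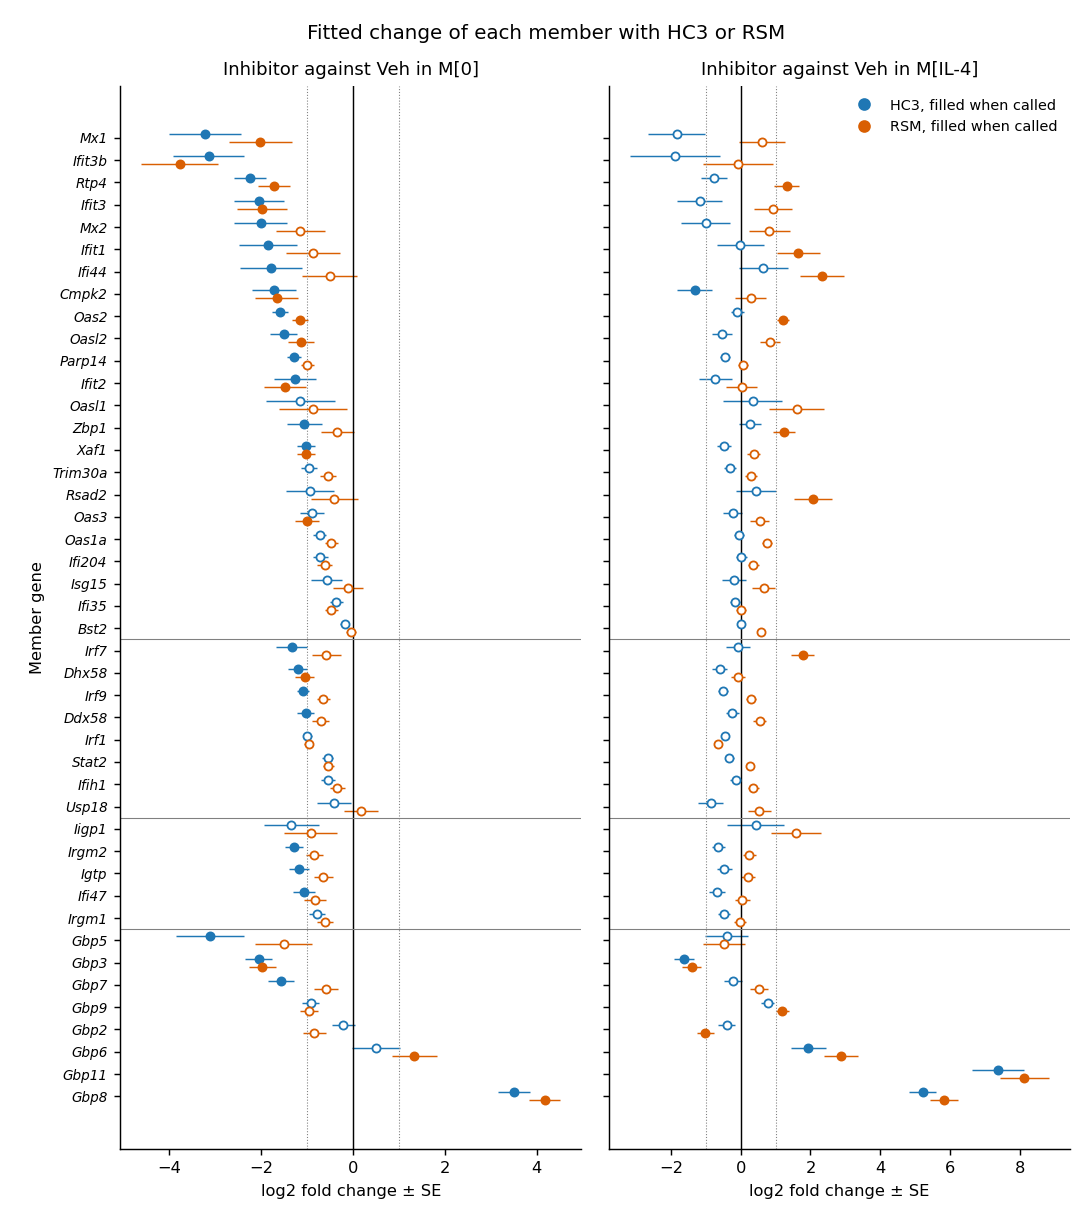
Fitted log2 fold change ± SE (x axis) of each tested member (y axis, by role) with HC3 (blue) or RSM (orange) against Veh, in M[0] (left) and M[IL-4] (right), with filled points for called members and dotted lines at 2-fold. Effectors and regulators lie left of 0 in M[0], except *Usp18* with RSM, and RSM points move right of 0 in M[IL-4] for most of them. *Gbp11* is left out in M[0], where it had at most 4 counts per group, and its values in M[IL-4] rest on 1 Veh count.

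In IL-4-polarized macrophages, fewer members were called lower, and the inhibitors differed. HC3 called 2 members lower (*Cmpk2* and *Gbp3*), against 5.53% of all genes, and 3 higher (*Gbp6*, *Gbp8* and *Gbp11*), against 4.72%. Of 23 effectors, 17 had a fitted value below 0 with HC3, with a median of -0.23. *Cmpk2* (-1.32 ± 0.50, FDR = 0.043) lost its call (FDR 0.0602 to 0.173) without Veh M[IL-4] replicate 2 or 3 or any 1 of the HC3 M[IL-4] libraries. With the replicate block within each polarization HC3 called 4 lower, the added ones being *Ifit3* (-1.23 ± 0.35, FDR = 0.00555) and *Mx1* (-1.85 ± 0.63, FDR = 0.0178). RSM called 11 members higher, against 5.05% of all genes, and 2 lower (*Gbp2* and *Gbp3*), against 6%. The 11 were the effectors *Ifit1*, *Rsad2*, *Oas2*, *Ifi44*, *Zbp1* and *Rtp4*, the regulator *Irf7*, and *Gbp6*, *Gbp8*, *Gbp9* and *Gbp11*. Without RSM M[IL-4] replicate 3, 4 of these 11 stayed called (*Irf7*, *Gbp6*, *Gbp8* and *Gbp11*), and the median of the effectors was 0.04 in place of 0.66.

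Values by library show the same dependence. *Oas2* was at 14.6, 15.0 and 19.0 CPM in Veh M[IL-4], 14.3, 15.5 and 15.6 with HC3 and 25.0, 35.6 and 51.7 with RSM. All RSM libraries were above all Veh libraries (1.21 ± 0.18, FDR = 2.66e-05), and without replicate 3 the change was 0.90 ± 0.14, FDR = 8.35e-05. *Oas1a* was at 33.0, 41.5 and 39.7 CPM in Veh, 33.7, 41.7 and 35.6 with HC3 and 47.3, 62.7 and 80.6 with RSM. Its RSM libraries also lay above all Veh libraries, with a change under 2-fold (0.74 ± 0.14, FDR = 4.02e-04 with RSM, and 0.53 ± 0.13, FDR = 0.00364 without replicate 3). *Rtp4* was at 6.57, 8.94 and 11.6 CPM in Veh M[IL-4], 5.72, 4.76 and 5.42 with HC3 and 9.47, 15.9 and 41.9 with RSM. Its lowest RSM library lay among the Veh libraries and replicate 3 was far above them (1.31 ± 0.35, FDR = 0.00582, and 0.49 ± 0.22, FDR = 0.0964 without replicate 3).

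For *Ifit1*, levels were 0.969, 3.08 and 4.26 CPM in Veh M[IL-4], 2.32, 3.82 and 2.08 with HC3 and 2.04, 3.61 and 20.3 with RSM. A single RSM library carried the difference (1.64 ± 0.62, FDR = 0.0417, and 0.03 ± 0.45, FDR = 0.97 without it), and the call was also lost without Veh M[IL-4] replicate 1 or 2 (lowest FDR 0.0725). *Ifi44* was at 0.431, 0.406 and 1.06 CPM in Veh, 0.566, 1.49 and 0.931 with HC3 and 0.815, 1.83 and 7.02 with RSM. Again replicate 3 stood apart (2.33 ± 0.63, FDR = 0.00628, and 1.05 ± 0.53, FDR = 0.143 without it). *Mx1* was at 1.02, 1.45 and 1.96 CPM in Veh M[IL-4], 0.226, 0.830 and 0.164 with HC3 and 0.407, 0.700 and 5.69 with RSM, and neither inhibitor was called in the fit with no block and with the count filter. *Rsad2*, which encodes viperin, likewise depended on replicate 3 (2.08 ± 0.54, FDR = 0.0048, and 0.79 ± 0.38, FDR = 0.127 without it).

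*Zbp1* was at 5.11, 10.6 and 8.79 CPM in Veh M[IL-4], 9.79, 11.3 and 8.38 with HC3 and 10.4, 17.8 and 30.01 with RSM. RSM replicate 1 lay below the highest Veh library and the others above it (1.25 ± 0.31, FDR = 0.00368, and 0.79 ± 0.29, FDR = 0.0476 without replicate 3). *Irf7* was at 7.21, 6.39 and 10.0 CPM in Veh M[IL-4], 8.26, 6.47 and 7.61 with HC3 and 13.1, 21.9 and 46.3 with RSM. Each RSM library exceeded each Veh library, and the rise was called with replicate 3 (1.78 ± 0.33, FDR = 2.81e-04) and without it (1.15 ± 0.26, FDR = 0.00187).

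**Figure D4:**
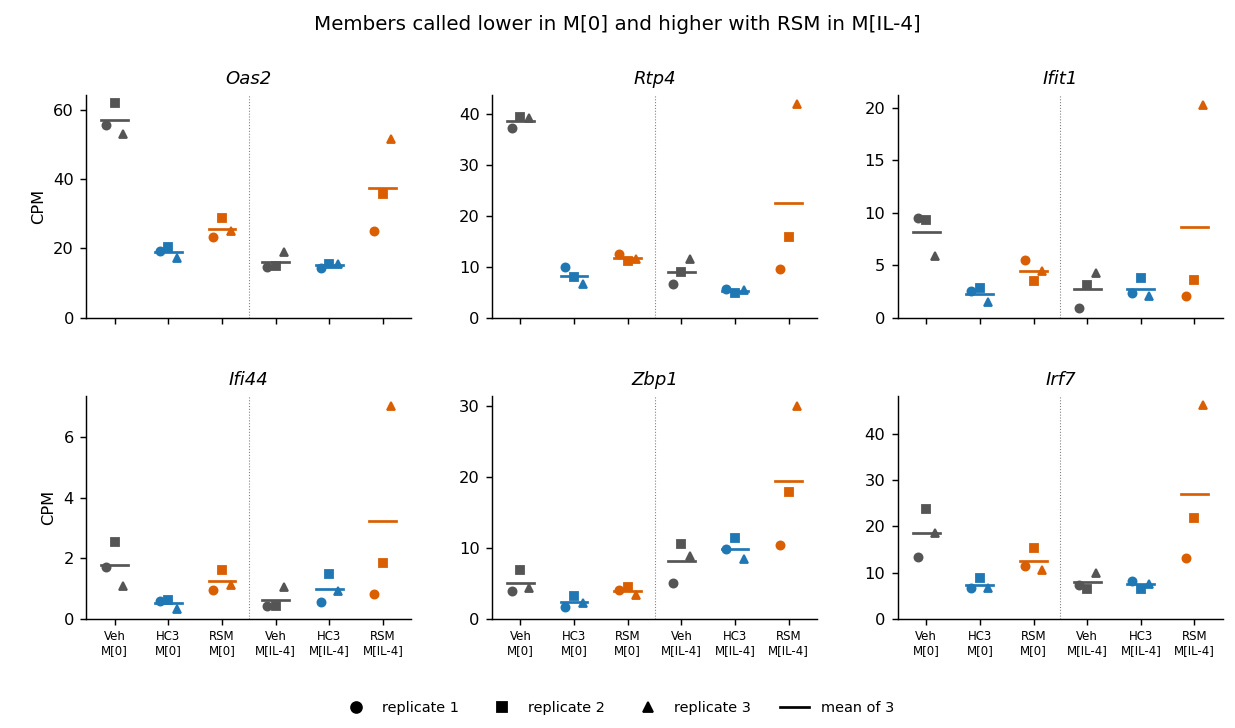
Expression in CPM (y axis) in each of 18 libraries by group (x axis) of the 6 members called lower than Veh in M[0] by HC3 or by both inhibitors, and higher with RSM in M[IL-4]; symbols give the replicate number and bars the mean of 3. In RSM M[IL-4] replicate 3 is the highest of its 3 libraries in each panel, at 51.7 CPM for *Oas2*, 41.9 for *Rtp4* and 20.3 for *Ifit1*.

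The other regulators changed less in M[IL-4]. *Irf9* was at 40.3, 51.6 and 47.1 CPM in Veh, 32.7, 35.4 and 29.7 with HC3 and 45.1, 52.3 and 73.3 with RSM, and HC3 was below Veh under 2-fold (-0.51 ± 0.14, FDR = 0.00646). *Ddx58* was at 29.1, 36.5 and 38.4 CPM in Veh, 28.7, 28.9 and 30.2 with HC3 and 33.4, 44.3 and 73.5 with RSM. *Dhx58* was at 15.6, 18.1 and 21.6 CPM in Veh, 11.7, 12.9 and 11.6 with HC3 and 12.9, 13.7 and 25.4 with RSM. Neither sensor was called in M[IL-4], and in both the RSM libraries overlapped those of Veh. *Usp18*, an inhibitor of interferon receptor signalling, was -0.86 with HC3 and 0.54 with RSM, neither of them called.

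No IRG gene was called by edgeR with either inhibitor in M[IL-4], with 4 of 5 (HC3) and 1 of 5 (RSM) at an unadjusted p under 0.05, and DESeq2 called 0 with either. *Irgm2* was at 18.5, 26.4 and 24.3 CPM in Veh M[IL-4], 13.1, 17.8 and 13.4 with HC3 and 18.8, 26.1 and 36.9 with RSM. Under HC3 it was lower by less than 2-fold (-0.64 ± 0.19, FDR = 0.0125). *Igtp* was at 10.9, 13.7 and 12.6 CPM in Veh, 5.94, 12.0 and 8.87 with HC3 and 9.53, 14.3 and 19.1 with RSM. *Ifi47* was at 12.4, 19.4 and 16.5 CPM in Veh, 9.85, 12.5 and 7.94 with HC3 and 11.6, 14.4 and 24.0 with RSM. In both genes the HC3 and RSM ranges overlapped that of Veh, while with HC3 each was lower in 3 of 3 same-numbered pairs (-0.47 ± 0.22, FDR = 0.0985 for *Igtp* and -0.67 ± 0.23, FDR = 0.0277 for *Ifi47*, and -0.50 ± 0.14 and -0.66 ± 0.17 with the replicate block within each polarization). *Iigp1*, a further member of the family, was low and scattered, at 0.940, 1.35 and 0.807 CPM in Veh M[0], 0.696, 0.358 and 0.158 with HC3 and 0.427, 0.471 and 0.719 with RSM. In M[IL-4] it was at 0.215, 0.174 and 0.224 CPM in Veh, 0.226, 0.111 and 0.493 with HC3 and 0.509, 0.108 and 1.28 with RSM, near the detection limit in most libraries. Macrophage markers in M[IL-4] summed to 11801 to 12146 CPM in Veh, 7469 to 8657 with HC3 and 10601 to 12982 with RSM. Single markers went different ways within these sums. With HC3 and RSM, *Lyz2*, the largest part, was -0.66 and 0.38, and *Fcgr1* 0.66 with both. *Csf1r* was -0.87 and -0.71, and *Adgre1* -0.26 and -0.03. *Itgam* was -1.38 and -0.18, and *Cd14* -1.01 and 0.10, both called lower with HC3 (5.53% of all genes). The *Cd14* call was lost without Veh M[IL-4] replicate 1 or 3 or HC3 M[IL-4] replicate 2. *Mertk* was -0.73 and -0.01, and *Cd68* -0.38 and -0.15. Stromal markers there summed to 275 to 648 CPM in Veh, 550 to 1039 with HC3 and 532 to 1057 with RSM. Among them, *Dcn* was -0.12 and -1.55 with HC3 and RSM, while the other tested ones were fitted higher with both. In the same order, B cell markers summed to 4.15 to 7.06, 0.931 to 2.49 and 0.357 to 0.700 CPM, and T cell markers to at most 1.17. The part of these markers in the M[IL-4] results was not tested.

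The calls of the 8 tested GBP genes with an inhibitor split by chromosomal cluster, although *Gbp9*, of the second cluster, was fitted below 0 with both inhibitors in M[0]. Their products are large GTPases that assemble on vacuoles and bacteria. On chromosome 3, between 142493978 and 142638008, lie *Gbp5*, *Gbp7*, *Gbp3* and *Gbp2*, none of which was called higher with an inhibitor. On chromosome 5, between 105014150 and 105346472, lie *Gbp8*, *Gbp9*, *Gbp4*, *Gbp10*, *Gbp6* and *Gbp11*. All 10 calls of the tested ones in the inhibitor comparisons, counted over both inhibitors and both polarizations, were of higher expression. The same comparisons called 4.72 to 5.93% of all genes higher. These 10 calls are not independent, as *Gbp8* was called in each comparison and both inhibitors were set against the same Veh libraries.

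*Gbp8* rose in all 4 inhibitor comparisons. It was at 1.94, 2.41 and 0.860 CPM in Veh M[0], 17.8, 26.1 and 14.6 with HC3 and 27.2, 37.4 and 28.4 with RSM. In M[IL-4] it was at 0.377, 1.10 and 0.672 CPM in Veh, 22.1, 36.9 and 20.9 with HC3 and 31.3, 52.7 and 38.4 with RSM. Every inhibitor library was far above every Veh library of its polarization, by 3.50 ± 0.35, FDR = 1.47e-07 (HC3) and 4.17 ± 0.34, FDR = 1.26e-08 (RSM) among naïve cells, beside 5.22 ± 0.40, FDR = 5.59e-09 and 5.83 ± 0.39, FDR = 9.58e-10 among M[IL-4] cells. Without RSM M[IL-4] replicate 3 the last of these was 5.87 ± 0.42, FDR = 7.70e-09.

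*Gbp6* was at 0.387, 0.999 and 0.484 CPM in Veh M[0], 1.28, 0.563 and 0.789 with HC3 and 1.55, 1.99 and 1.18 with RSM. In M[IL-4] it was at 0.269, 0.813 and 0.336 CPM in Veh, 1.36, 2.32 and 1.75 with HC3 and 1.68, 5.22 and 3.51 with RSM. In M[IL-4] both inhibitors were above Veh without overlap (1.94 ± 0.50, FDR = 0.0048 for HC3, 2.87 ± 0.48, FDR = 9.16e-05 for RSM, and 2.86 ± 0.53 for RSM without replicate 3), while in M[0] HC3 overlapped Veh (0.50 ± 0.52, FDR = 0.467) and the call with RSM (1.34 ± 0.49, FDR = 0.0345) was lost (FDR 0.0654 to 0.126) without RSM M[0] replicate 1 or 2 or Veh M[0] replicate 1 or 3. Because 69.6% of the *Gbp6* transcript is near-identical to *Gbp10* or the gene model *Gm43302*, its level is uncertain. *Gbp10* had 1 count in all 18 libraries, but 97.8% of its transcript is near-identical to *Gbp6* or *Gm43302*, so its level is uncertain too.

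*Gbp11*, annotated as a polymorphic pseudogene, had 0 counts over the 3 Veh libraries of M[0], 3 with HC3 and 4 with RSM, too few for a fold. In M[IL-4] it had 1 count in Veh, 227 with HC3 and 405 with RSM. By library this was 0, 0 and 0.0560 CPM in Veh, 2.72, 6.58 and 3.29 with HC3 and 5.25, 9.20 and 6.97 with RSM. The ratio to Veh, with its 95% interval for counting error only, was 226 (40.1 to 8948) for HC3 and 381 (68.0 to 15095) for RSM, wide because of the single Veh count, and both were called in every alternative.

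*Gbp9* differed in direction between the polarizations. It was at 35.7, 40.1 and 33.6 CPM in Veh M[0], 20.2, 18.3 and 19.0 with HC3 and 19.4, 19.2 and 17.8 with RSM, and the inhibitors lay below Veh by less than 2-fold (-0.92 ± 0.19, FDR = 5.98e-04 and -0.95 ± 0.19, FDR = 4.79e-04). In M[IL-4] it was at 11.6, 18.8 and 15.7 CPM in Veh, 20.8, 30.9 and 26.7 with HC3 and 24.2, 35.1 and 46.1 with RSM. Here the inhibitors lay above Veh (0.77 ± 0.19, FDR = 0.00394 and 1.20 ± 0.19, FDR = 6.11e-05), and without RSM M[IL-4] replicate 3 the rise with RSM was under 2-fold (0.95 ± 0.18, FDR = 5.35e-04).

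On chromosome 3, *Gbp3* was called lower in all 4 inhibitor comparisons and in every alternative, with -2.05 ± 0.30 (HC3) and -1.97 ± 0.29 (RSM) among naïve cells, beside -1.64 ± 0.28 and -1.41 ± 0.28 among M[IL-4] cells (-1.67 ± 0.31 for RSM without replicate 3). Its group means were 5.01 ± 0.816 CPM in Veh M[0], 1.20 ± 0.131 CPM with HC3 and 1.27 ± 0.413 CPM with RSM (SD, n = 3). *Gbp7* was at 6.58, 4.70 and 5.65 CPM in Veh M[0], 1.93, 1.69 and 2.10 with HC3 and 3.84, 3.82 and 3.59 with RSM. Both inhibitors were below Veh, HC3 past 2-fold (-1.56 ± 0.28, FDR = 1.71e-04) and RSM not (-0.59 ± 0.26, FDR = 0.0816). In M[IL-4] *Gbp7* was at 3.07, 5.23 and 5.94 CPM in Veh, 3.40, 4.43 and 4.33 with HC3 and 3.97, 7.37 and 9.05 with RSM, and all groups overlapped. Of its transcript, 11.3% is near-identical to the gene model *Gm43802*. *Gbp5*, which promotes inflammasome activation, was called lower with HC3 in M[0] (-3.10 ± 0.74, FDR = 0.00221) from a low level. *Gbp2* was called lower with RSM in M[IL-4] (-1.02 ± 0.24, FDR = 0.00259), a fall that was under 2-fold with the replicate block within each polarization (-0.97 ± 0.16) and without Veh M[IL-4] replicate 2 or RSM M[IL-4] replicate 1 or 2.

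**Figure D5:**
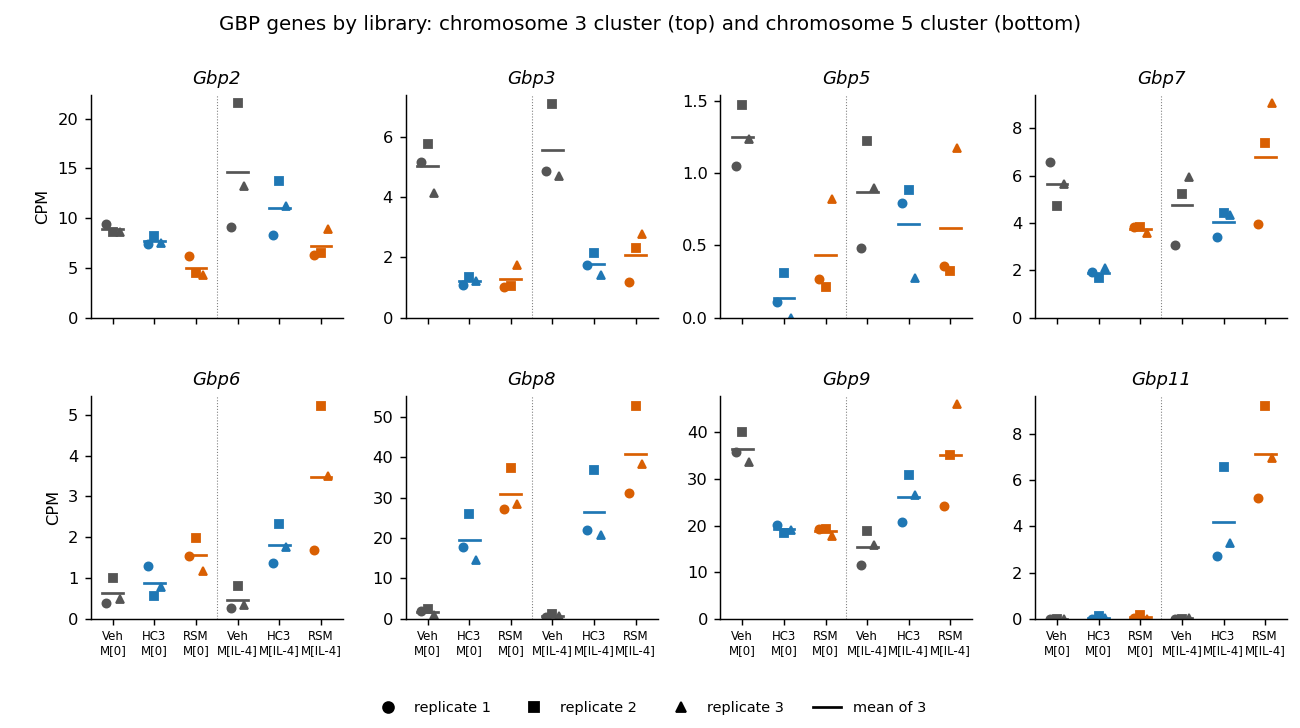
Expression in CPM (y axis) in each library by group (x axis) of the 4 GBP genes of chromosome 3 (top) and the 4 tested GBP genes of chromosome 5 (bottom); symbols give the replicate number and bars the mean of 3. *Gbp3* is lower and *Gbp8* higher in every inhibitor library than in every Veh library of the same polarization, and *Gbp11* is near 0 except in HC3 and RSM M[IL-4].

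IL-4 itself, compared with M[0] among Veh cells, called 10 members lower, against 3.83% of all genes. No member was called higher by edgeR (2.83% of all genes), with 3 higher at an unadjusted p under 0.05 and 0 called by DESeq2. The 10 were 7 effectors (*Rtp4*, *Oas2*, *Oas3*, *Oasl2*, *Ifit3*, *Ifit3b* and *Mx2*), *Irf7*, *Iigp1* and *Gbp9*. The change was -2.10 ± 0.35, FDR = 1.42e-04 for *Rtp4*, -1.81 ± 0.18, FDR = 3.13e-07 for *Oas2* and -1.24 ± 0.34, FDR = 0.00854 for *Irf7*, and no library of these genes overlapped between the Veh groups. *Iigp1* (-2.29 ± 0.68, FDR = 0.0145) and *Oas3* lost the call without Veh M[0] replicate 2, *Oasl2* without that library or Veh M[IL-4] replicate 1, and *Mx2* without any of Veh M[0] replicates 2 and 3 and Veh M[IL-4] replicates 1 and 3. Without Veh M[0] replicate 2, 6 members were called lower. Of 8 macrophage markers, 4 were called lower by IL-4 in Veh, against 3.83% of all genes. They were *Cd14* (-2.23), *Fcgr1* (-1.82), *Lyz2* (-1.36) and *Mertk* (-1.24), and the B cell marker *Ighm* (-2.08) was called lower too. *Itgam* (-0.54), *Adgre1* (-0.40), *Csf1r* (-0.18) and *Cd68* (0.002) were not called. The summed macrophage markers were at 20277 to 21364 CPM in the Veh naïve libraries and at 11801 to 12146 under IL-4. *Lyz2*, the largest part of that sum, had a mean of 11633 CPM in Veh M[0] and 4531 in Veh M[IL-4]. The B cell markers were at 21.3 to 27.8 CPM and 4.15 to 7.06. The part of these markers in the IL-4 result was not tested.

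Among inhibitor-treated cells, IL-4 called no member lower by edgeR. With HC3, 4 were called higher (*Zbp1*, *Irf1*, *Gbp7* and *Gbp11*), against 1.82% of all genes, and 2.14% of all genes were lower. With RSM, 6 were called higher (*Zbp1*, *Irf1*, *Irf7*, *Usp18*, *Ifi47* and *Gbp11*), against 2.45%, and 1.81% of all genes were lower. DESeq2 also called 0 lower with either inhibitor, and 10 members with HC3 and 28 with RSM had an unadjusted p under 0.05 in either direction. *Irf1*, which drives interferon gamma responses and GBP transcription, changed by 1.30 ± 0.10, FDR = 4.73e-08 with HC3 and 1.07 ± 0.10, FDR = 3.70e-07 with RSM, beside 0.75 ± 0.10, FDR = 1.20e-05 in Veh. The call of *Gbp7* with HC3 was lost (FDR 0.0554 to 0.0559) without HC3 M[0] replicate 2 or HC3 M[IL-4] replicate 2. With RSM, *Irf7* and *Usp18* lost theirs without RSM M[0] replicate 1 or 3, *Ifi47* without RSM M[0] replicate 3 and *Usp18* also without RSM M[IL-4] replicate 2. The count with RSM was 2 without RSM M[IL-4] replicate 3 (*Zbp1* and *Gbp11*), 3 without RSM M[0] replicate 3 and 15 without RSM M[IL-4] replicate 1.

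The dependence of each inhibitor's effect on polarization was tested as an interaction, where a positive value means that the log2 fold change against Veh was higher under IL-4. For RSM, 15 members were called positive, against 1.22% of all genes, and none negative by edgeR (0.921% of all genes) or DESeq2, with 38 members at an unadjusted p under 0.05 in either direction. They were 11 effectors, *Irf7* and *Ddx58*, *Irgm2* and *Gbp9*. The difference was 3.03 ± 0.49, FDR = 4.79e-04 for *Rtp4*, 2.35 ± 0.25, FDR = 8.12e-06 for *Oas2*, 2.36 ± 0.46, FDR = 0.00274 for *Irf7*, 1.21 ± 0.20, FDR = 6.64e-04 for *Oas1a* and 2.15 ± 0.27, FDR = 4.03e-05 for *Gbp9*. These 5, with *Oasl2* and *Xaf1*, were called in every alternative. Without RSM M[IL-4] replicate 3 only these 7 were called, without Veh M[IL-4] replicate 1 there were 9, and without RSM M[IL-4] replicate 1 there were 27. With the replicate block within each polarization there were 25.

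For HC3 the interaction called 3 members positive (*Oas2*, *Gbp9* and *Gbp7*), against 0.481% of all genes, and none negative by edgeR (0.761%) or DESeq2, with 19 at an unadjusted p under 0.05 in either direction. The values were 1.49 ± 0.26, FDR = 0.00159 for *Oas2*, 1.69 ± 0.27, FDR = 8.04e-04 for *Gbp9* and 1.34 ± 0.39, FDR = 0.0451 for *Gbp7*, the last of which lost its call in 9 of the 12 refits that left out 1 library. With the replicate block within each polarization 10 were called, the added ones being *Gbp5*, *Gbp8*, *Ifi44*, *Ifit1*, *Irf7*, *Rtp4* and *Zbp1*.

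The inhibitors, which act at successive steps of choline use, were compared directly at the single dose of each, 250 µM HC3 and 5 µM RSM. As the doses differ, the values hold for these doses only. In M[0], no member was called by edgeR or DESeq2 (1.61% of all genes higher and 1.44% lower with HC3 than with RSM), and 9 members had an unadjusted p under 0.05. The block within each polarization called 1 (*Ifi44*). In M[IL-4], 9 members were called lower with HC3 than with RSM, against 1.59% of all genes, and none higher by edgeR or DESeq2 (1.21%), with 36 at an unadjusted p under 0.05 in either direction. The 9 were *Oas2* (-1.31 ± 0.18, FDR = 5.93e-05), *Irf7* (-1.86 ± 0.34, FDR = 7.89e-04), *Rtp4* (-2.08 ± 0.37, FDR = 7.07e-04), *Oasl2*, *Usp18*, *Rsad2*, *Cmpk2*, *Mx1* and *Ifit3*. Without RSM M[IL-4] replicate 3, 3 remained (*Oas2*, *Irf7* and *Rtp4*). The count was 4 without HC3 M[IL-4] replicate 1, 5 without HC3 M[IL-4] replicate 3 and 20 without RSM M[IL-4] replicate 1.

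Of 14 interferon ligands and receptors, 5 passed the filter. *Ifnb1*, 4 interferon alpha genes, *Ifng*, *Ifnl2* and *Ifnl3* had 0 counts in all 18 libraries, which allows up to 0.176 CPM in any library. *Ifngr1* was the only one of the 5 called in an inhibitor comparison, lower with HC3 in M[0] (-1.15 ± 0.07, FDR = 3.83e-10), with -0.83 ± 0.07 for RSM in M[0], and its RSM interaction was 1.13 ± 0.10, FDR = 1.35e-06. *Ifnar1* was -0.87 and -0.60 with HC3 and RSM in M[0], *Ifnar2* -0.43 and -0.37, and *Ifngr2* -0.61 and -0.54. In M[IL-4], HC3 and RSM gave -0.43 and -0.09 for *Ifnar1* and 0.02 and 0.41 for *Ifnar2*. They gave -0.60 and 0.31 for *Ifngr1* and -0.37 and -0.21 for *Ifngr2*. The RSM interaction was under 2-fold for *Ifnar1* (0.51, FDR = 7.66e-04), *Ifnar2* (0.78, FDR = 3.13e-06) and *Ifngr2* (0.33, FDR = 0.00494).

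Of 21 genes of interferon signalling, at most 2 were called in any inhibitor comparison. Over all genes, these comparisons called 4.72 to 5.93% higher and 5.53 to 6.51% lower. *Ptpn6*, a phosphatase that restrains cytokine signalling, was lower in all 4 (-1.51 and -1.26 in naïve cells, -1.20 and -1.05 under IL-4), and *Socs3*, a feedback inhibitor, was called higher with RSM among naïve cells (1.09) and under IL-4 with HC3 (1.12) and RSM (2.04, and 1.97 without RSM M[IL-4] replicate 3). *Socs1* rose with IL-4 in Veh (3.94). Of 19 genes of nucleic acid and Toll-like receptor sensing, HC3 lowered 5 (6.11% of all genes) and RSM 3 (6.51%) in naïve cells, while each lowered 2 under IL-4 (5.53% and 6%), with *Ticam2* higher in all 4. *Tlr9*, the endosomal DNA receptor, was -1.91 and -1.79 in naïve cells, beside -1.33 and -1.05 under IL-4, the last of which was -0.98 without RSM M[IL-4] replicate 3.

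A second list of interferon-stimulated genes outside the 47 held 43 tested genes. Among naïve cells, 13 were called lower with HC3, against 6.11% of all tested genes, and 7 with RSM, against 6.51%. In M[IL-4], HC3 called 4 lower (5.53% of all genes) and 1 higher (4.72%), and RSM called 2 lower (6%) and 3 higher (5.05%). Without RSM M[IL-4] replicate 3 the last count was 1 (*Ifitm3*). *Ifi27l2a* was -3.51 and -3.62 in naïve cells, beside -2.54 and -1.38 under IL-4 with HC3 and RSM (-1.80 with RSM without replicate 3). *Ifitm3*, which blocks viral entry, was 0.07 and 0.55 in naïve cells, neither called, and rose under IL-4 with HC3 (1.12) and RSM (1.92, and 1.77 without replicate 3). The RSM interaction called 11 of the 43 positive, against 1.22% of all genes, and 4 without RSM M[IL-4] replicate 3 (*Ifitm3*, *Ifi27l2a*, *Slfn5* and *Lgals3bp*).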

How the data were processed

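RNA of 18 BMDM libraries was captured with poly-T beads and sequenced by the authors, who trimmed reads with fastp, aligned them to GRCm38 with STAR, kept pairs of high mapping quality, with duplicates marked but not removed, and counted exons with featureCounts. The authors deposited raw counts per gene; strand setting and annotation release are not given in the sources used here. All sample columns were used. Symbols came from GENCODE M21 for 55144 of 55385 genes.

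Genes reaching 10 counts in 2 or more libraries were fitted with edgeR (4.0.16, R 4.3.3): quasi-likelihood test, TMM scaling, 1 coefficient per group over 18 libraries and Benjamini-Hochberg adjustment. A call needed FDR under 0.05 and 2-fold. Alternatives were replicate blocks, only the compared groups, DESeq2 (1.42.0), other filters, library size only, mitochondrial genes left out and each library left out. The members, lists and tests were chosen with earlier results of these data known. Values in every library are given for the 3 called members of each role with the largest change (same sign in all same-numbered pairs, mean of 50 or more counts), for up to 3 of each role with the lowest FDR in an interaction or with IL-4 in Veh, and for members called in opposite directions.

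Deviations from group means correlated between same-numbered libraries of a polarization (r 0.110 to 0.372, 18 of 18 pairs above 0.1), but across polarizations in 12 of 27 pairs only. Replicates 2 correlated across polarizations (r 0.239 to 0.300). Replicates 3 of M[0] correlated with replicates 1 of M[IL-4] (r 0.0861 to 0.198), against -0.00613 to 0.115 with replicates 3. The main fit used no pairing, also for IL-4 and the interactions. The labels name 3 mice without tying numbers to them, so p-values measure the spread between these libraries. No replicate pair agreed within counting noise (chi-square per gene 6.30 to 20.3). On simulated counts for HC3 against Veh in M[0] (14979 genes, 200 changed by 2 on the log2 scale), edgeR recovered 200 with 2 false calls. The simulation gave every gene the same spread and changed only well-counted genes. It therefore does not show how often a change in a low or variable member is found. Near-identical transcripts (at least 98% over 100 bases) were found with blastn (2.17.0). Single values of some listed genes are not reported here.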

Additional observations from a re-analysis of the deposited data

Results flagged for a closer look

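The members below were singled out because the effect of an inhibitor differed between M[IL-4] and M[0] in edgeR's interaction test (FDR under 0.05 and at least 2-fold). For RSM, the log2 differences were 1.59 for *Zbp1*, 2.84 for *Ifi44*, 1.24 for *Ddx58*, 2.15 for *Gbp9*, 1.96 for *Oasl2*, 2.35 for *Oas2*, 1.55 for *Oas3*, 1.21 for *Oas1a*, 2.36 for *Irf7*, 1.09 for *Irgm2*, 1.40 for *Xaf1*, 2.48 for *Rsad2*, 3.03 for *Rtp4*, 1.06 for *Parp14* and 2.90 for *Ifit3*. For HC3, they were 1.34 for *Gbp7*, 1.69 for *Gbp9* and 1.49 for *Oas2*. All were positive. For RSM, *Gbp9*, *Irf7*, *Oas1a*, *Oas2*, *Oasl2*, *Rtp4* and *Xaf1* were called in each refit that left out 1 library, whereas the other 8 lost the call without at least RSM M[IL-4] replicate 3, the library in which the members were highest. For HC3, *Gbp9* and *Oas2* were called in each such refit and *Gbp7* was not.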

How the results depend on the processing

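Each of the 104 calls of a member was refitted under the alternatives, 1544 refits in all. Of these, 1386 kept the call, 158 lost it and 0 reversed it, and 57 calls were kept in all of them. With the replicate block over all libraries, RSM called 1 member lower in M[IL-4] (2 without the block) and the HC3 interaction called 6 (3). Numbers paired libraries within a polarization, and with the block within each polarization HC3 called 4 lower and RSM 1 lower in M[IL-4] (2 each without it), the interactions called 10 for HC3 (3) and 25 for RSM (15), and HC3 against RSM called 1 lower in M[0] (0). It changed other counts by less than 1.5 times and was not run for IL-4 against M[0], where such a block leaves no comparison between polarizations. With no filter on counts, members called were 4 lower with HC3 in M[IL-4], 16 lower with IL-4 in Veh (10), 1 lower with IL-4 in HC3 (0), 11 higher with IL-4 in RSM (6), 11 and 25 in the HC3 and RSM interactions, and 1 lower for HC3 against RSM in M[0]. With library size only, 1 was lower with HC3 and 1 with RSM in M[IL-4]. With only the compared groups, the HC3 interaction called 5, and HC3 against RSM called 1 lower in M[0] and 5 in M[IL-4] (9). DESeq2 called 5 in the HC3 interaction. The cause of these changes was not tested.

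Leaving out 1 library at a time, HC3 in M[0] called 1 to 1 higher and 16 to 26 lower, and RSM 1 to 2 higher and 10 to 13 lower. In M[IL-4], HC3 called 3 to 3 higher and 1 to 3 lower, and RSM 4 to 13 higher and 1 to 3 lower. IL-4 called 0 to 1 higher and 6 to 10 lower in Veh, 3 to 4 higher in HC3 and 2 to 15 higher in RSM. The interactions called 2 to 3 for HC3 and 7 to 27 for RSM, and HC3 against RSM called 3 to 20 lower in M[IL-4]. At this depth, *Gbp11* in M[0] and the interferon ligands could not be compared.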
